A study of Mus musculus with 4 samples.

Results

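The S100 calcium-binding proteins S100A8, S100A9 and S100A4 and their receptor RAGE were represented by 5 of the 98 assays of an RT-qPCR panel, which was run together with 2 housekeeping assays. Members were taken by name, as the assays called S100A8, S100A9, S100A4, RAGE and AGER, and not by their values. The choice was made with earlier results of these data known. RAGE and AGER are names of the same mouse gene, Ager, so that the 5 assays stand for 4 genes. Whole lungs were taken from female C57BL/6J mice, 6 to 8 weeks old at the start, in 4 groups. In every group the lung was injected orthotopically and the mice were then treated intranasally on Days 3, 6 and 9, with harvest on Day 10. HBSS + vehicle, the control, received Matrigel with salt solution but no cells and then HBSS, the carrier solution. S100A8 + vehicle received the same injection and then 10 µg of recombinant murine S100A8 at each treatment. HBSS + LLC was given cells of LLC, a mouse Lewis lung carcinoma line, and then HBSS, while S100A8 + LLC combined LLC cells with the same S100A8 treatment. For brevity the lungs of S100A8 + vehicle are also called S100A8 alone, those of HBSS + LLC LLC alone, and those of S100A8 + LLC both. All 4 groups therefore carried the injected matrix and were dosed through the nose, and LLC was 1 cell line.

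S100A8 and S100A9 are small calcium-binding proteins that pair as a heterodimer, calprotectin, and are made in large amounts by neutrophils and other myeloid cells. Once released from these cells, they act as danger signals through the receptors RAGE and TLR4. S100A4 belongs to the same family, is made by fibroblasts, macrophages and many tumour cells, and is known for its link to cell motility and metastasis. RAGE, the receptor for advanced glycation end products, is a membrane protein of the immunoglobulin superfamily that activates NF-κB, and in the healthy lung it is known above all from alveolar type I cells. RT-qPCR reads mRNA, so the inhaled S100A8 protein itself was not measured, and the S100A8 assay reports the lung's own S100a8 transcript. LLC cells are mouse cells, so in both LLC groups their transcripts and those of the host lung could not be told apart. In whole lung, fewer cells of a type and less RNA per cell cannot be told apart either.

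The 3 S100 genes lie together on mouse chromosome 3 in the RefSeq annotation of GRCm38.p6, where 13 S100 genes are listed. S100a8 and S100a9 are direct neighbours with 0 protein-coding genes between them, 3 protein-coding genes lie between S100a4 and S100a8, and Ager is on chromosome 17. Because the neighbours S100a8 and S100a9 gave diverging readings in S100A8 + LLC, the stretch around the annotated start of each S100 gene is shown for comparison, as 110 bases before the start and 20 after it, 5′ to 3′ on the gene's own strand. Sequences are RefSeq's, build GRCm38.p6, and capitals mark TATAAA, the letters of a TATA box.
S100a8 (chr3:90668961-90669090, plus strand): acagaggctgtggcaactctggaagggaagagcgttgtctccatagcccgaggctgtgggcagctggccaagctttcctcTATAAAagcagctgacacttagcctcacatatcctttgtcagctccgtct
S100a9 (chr3:90695702-90695831, minus strand): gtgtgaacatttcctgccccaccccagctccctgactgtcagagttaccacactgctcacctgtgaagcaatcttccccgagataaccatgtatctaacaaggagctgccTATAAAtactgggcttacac
S100a4 (chr3:90603660-90603789, plus strand): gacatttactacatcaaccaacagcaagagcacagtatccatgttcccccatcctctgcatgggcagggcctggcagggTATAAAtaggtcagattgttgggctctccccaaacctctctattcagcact
The letters TATAAA were searched on both strands of windows of 250 bases before and 50 after the annotated start. They begin 30 bases before the start of S100a8, 31 bases before that of S100a4 and 0 bases before that of S100a9, at the annotated start itself. RefSeq lists 2 transcripts of S100a9, and the window is set on 1 start per gene. They were not found in the window of Ager. Of 32851 such windows in the table, 13.6% held a match, and a match is a description and not a site shown to be used.

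The deposited values were threshold cycles (Ct), the number of amplification cycles at which a product is detected, so that a lower Ct stands for more template. The authors averaged the Ct of 4 to 5 mice in each group, and 1 value per group and assay was available. There is thus no spread between mice to set a difference against, and all differences are described without an error or a test. The mean Ct of the 5 assays lay between 16.06 and 24.02 in all groups, at least 13.98 cycles under the cut off of 38 cycles. None of them exceeded 30 cycles in any group, whereas 26 of the 98 panel assays did. Levels of different genes were not ranked, because each assay has its own primers, and only changes of an assay between groups are given. The panel did not include surfactant genes, which mark part of the alveolar epithelium. Fold changes were computed after subtraction of the mean Ct of the 2 housekeeping assays, and each was recomputed with 5 other references: either housekeeping assay alone, the median of the panel, the median of the 72 panel assays at or under 30 cycles in all groups, and no reference. A change of reference shifts all assays of a comparison by the same amount. The 2 housekeeping assays did not move together, and fold changes on the log2 scale differed between them by 1.28 in S100A8 + vehicle and 3.20 in HBSS + LLC against HBSS + vehicle, and by 0.20 in S100A8 + LLC against S100A8 + vehicle. More than 2-fold either way was used as the threshold.

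**Figure D1:**
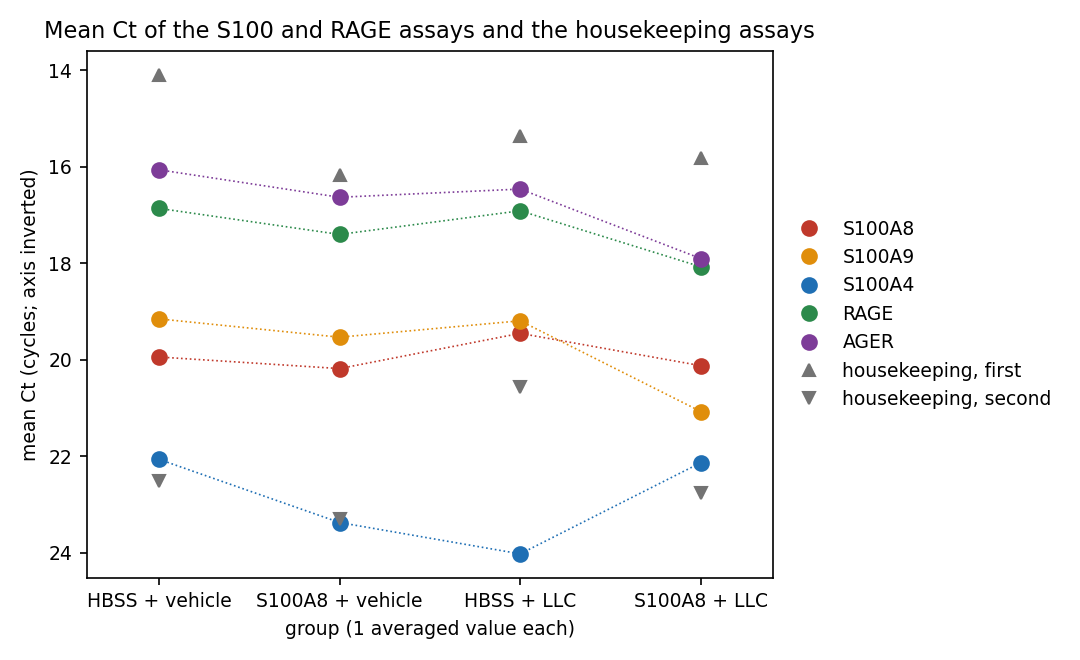
Mean Ct (cycles, inverted axis, so that more template is higher) of the 5 assays in the 4 groups, with the 2 housekeeping assays in grey; each point is 1 averaged value, there are no error bars, and dotted lines only join points of an assay. S100A9, RAGE and AGER have their highest Ct in S100A8 + LLC, S100A4 has its highest in HBSS + LLC, and S100A8 spans 0.73 cycles.

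The S100A8 transcript read 19.94 cycles in the control, 20.18 with S100A8 alone, 19.45 with LLC alone and 20.12 with both. This range of 0.73 cycles was narrow, and 96 of the 98 panel assays varied more. After subtraction of the housekeeping mean, S100A8 mRNA was highest with S100A8 alone, at 2.30-fold of the control, followed by both at 1.75-fold and LLC alone at 1.11-fold. The order of S100A8 + vehicle and the control turned with no reference, where the log2 fold change was -0.24, and it was 0.56 with the second housekeeping assay alone. S100A8 was thus the member whose raw reading varied least, and its normalised increase came with the higher housekeeping Ct of S100A8 + vehicle, 19.74 against 18.30 in the control.

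S100A9, the heterodimer partner of S100A8, read 19.15 cycles in the control, 19.53 with S100A8 alone, 19.19 with LLC alone and 21.07 with both. The first 3 groups lay within 0.38 cycles of each other and S100A8 + LLC stood 1.54 cycles or more above them. A wider Ct range over the groups was seen in 68 of the 98 panel assays. After normalisation, S100A9 mRNA was 2.08-fold of the control with S100A8 alone, 1.30-fold lower with LLC alone and 1.91-fold lower with both. Between mice that all inhaled S100A8, those with LLC had 3.97-fold less S100A9 mRNA than those without. That difference of -1.99 on the log2 scale lay between -2.16 and -1.51 over the 6 references, past 2-fold under each of them, and was the second lowest of the 98 panel assays.

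S100A4, which is expressed by fibroblasts, macrophages and tumour cells, differed most between groups among the 3 S100 transcripts after normalisation. It read 22.06 cycles in the control, 23.37 with S100A8 alone, 24.02 with LLC alone and 22.13 with both. The control and S100A8 + LLC were thus 0.07 cycles apart, and HBSS + LLC read least. Of the 98 panel assays, 65 had a wider Ct range over the groups than S100A4. S100A4 mRNA with LLC alone was 4.92-fold lower than in the control. With both it was 9.32-fold higher than with LLC alone, the 5th highest of 98 panel assays, and between 3.71-fold and 16.9-fold higher over the 6 references.

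RAGE was read by a pair of assays. The assay named RAGE read 16.86 cycles in the control, 17.40 with S100A8 alone, 16.91 with LLC alone and 18.07 with both. The assay named AGER read 16.06 cycles in the control, 16.63 with S100A8 alone, 16.46 with LLC alone and 17.90 with both. In both assays the control read earliest and S100A8 + LLC latest. With the housekeeping mean subtracted, both were highest in S100A8 + vehicle. Their lowest group differed, since RAGE was lowest in HBSS + LLC and AGER in S100A8 + LLC.

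The effect of inhaled S100A8 in lungs without cancer was read from S100A8 + vehicle against HBSS + vehicle. S100A8 and S100A9 mRNA were 2.30-fold and 2.08-fold higher, RAGE and AGER were on the same side of 0 at log2 0.90 and 0.87, and S100A4 was at 0.13. Of the 5 assays 2 were more than 2-fold higher and 0 lower, where 27.8% of 97 panel assays were more than 2-fold higher and 17.5% lower. Using only the first housekeeping assay these shares were 49.5% and 11.3%, and using only the second 16.5% and 30.9%. S100A8 ranked 23rd and S100A9 27th from the highest, so a 2-fold increase was common on this panel. All 5 increases depended on the reference, since each log2 fold change was below 0 with no reference, from -0.24 for S100A8 to -1.31 for S100A4.

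The effect of LLC cancers alone was read from HBSS + LLC against HBSS + vehicle. S100A4 mRNA was 4.92-fold lower, with a log2 fold change of -2.30, 7th from the lowest of 98 panel assays. It was below 0 under all 6 references, between -3.90 and -0.70. It was the only 1 of the 5 assays past 2-fold, where 21.4% of panel assays were more than 2-fold lower and 26.5% higher. The split turned with the reference, to 4.08% lower and 62.2% higher using only the first housekeeping assay, and 63.3% lower and 14.3% higher using only the second. S100A8 was at 0.15, S100A9 at -0.38, RAGE at -0.39 and AGER at -0.74. The direction of these 4 turned between the housekeeping assays, and S100A8 ran from -1.45 with the second alone to 1.75 with the first alone.

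S100A8 + LLC against HBSS + vehicle compared lungs with both treatments with lungs with neither. None of the 5 assays was past 2-fold, where 22.4% of panel assays were higher and 18.4% lower. The panel shares were 37.8% and 8.16% using only the first housekeeping assay, and 16.3% and 48.0% using only the second. The S100 transcripts were split. S100A4 was at log2 0.92 and S100A8 at 0.81, while S100A9 was at -0.93. AGER was at -0.85 and RAGE at -0.22. S100A9, at -1.92 to -0.19, and AGER, at -1.84 to -0.11, stayed below 0 under all 6 references. S100A8, S100A4 and RAGE did not keep their side. These 3 comparisons share the control group, so their values are not independent of each other.

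**Figure D2:**
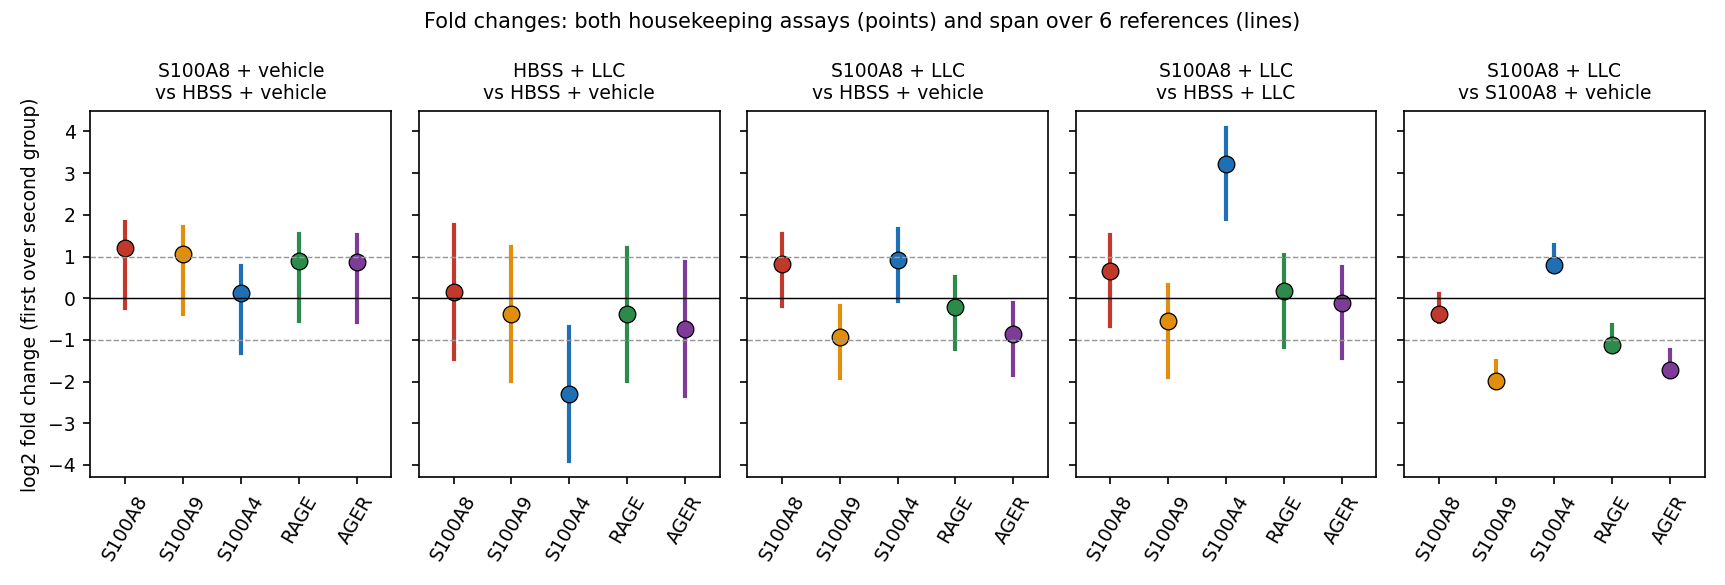
Log2 fold change (first over second group) of the 5 assays in 5 comparisons; points use the mean of the 2 housekeeping assays, lines run from the lowest to the highest value over 6 references and are not error bars, and dashed lines mark 2-fold. S100A4 in S100A8 + LLC against HBSS + LLC, and S100A9 and AGER in S100A8 + LLC against S100A8 + vehicle, lie past 2-fold along their whole lines.

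Inhaled S100A8 in the presence of cancer was read from S100A8 + LLC against HBSS + LLC. S100A4 mRNA was 9.32-fold higher, and it was the only 1 of the 5 past 2-fold, where 11.2% of panel assays were more than 2-fold higher and 15.3% lower. They were 5.10% and 44.9% using only the first housekeeping assay, and 39.8% and 6.12% using only the second. S100A8 was at log2 0.66, 17th from the highest, RAGE at 0.17, AGER at -0.11 and S100A9 at -0.55. The values of these 4 assays crossed 0 with the reference. S100A8, for example, ran from -0.67 with no reference to 1.52 with the second housekeeping assay alone.

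LLC cancers in mice that all inhaled S100A8 were read from S100A8 + LLC against S100A8 + vehicle, the comparison in which the references lay closest, within 0.66 on the log2 scale. S100A9, RAGE and AGER mRNA were lower, by 3.97-fold, 2.17-fold and 3.29-fold. That made 3 of 5 assays more than 2-fold lower and 0 higher, where 29.6% of panel assays were lower and 12.2% higher. Using only the first housekeeping assay 24.5% were lower and 15.3% higher, and using only the second 33.7% and 12.2%. AGER was 5th and S100A9 2nd from the lowest of 98. S100A9 and AGER were past 2-fold under all 6 references, and RAGE, at -1.29 to -0.64, was below 0 under all 6. S100A4 was 1.73-fold higher, above 0 under all 6 references, and S100A8 was at -0.39, with a range of -0.56 to 0.10.

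The difference between both LLC effects, that with inhaled S100A8 minus that with HBSS, was 3.09 on the log2 scale for S100A4, the 8th highest of 98. S100A4 was lower with LLC in HBSS-treated mice, at -2.30, and higher with LLC in S100A8-treated mice, at 0.79. It was -1.61 for S100A9, which stayed below 0 over the references, between -3.11 and -0.11. It was -0.98 for AGER, -0.73 for RAGE and -0.54 for S100A8, and each of these crossed 0 with the reference.

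**Figure D3:**
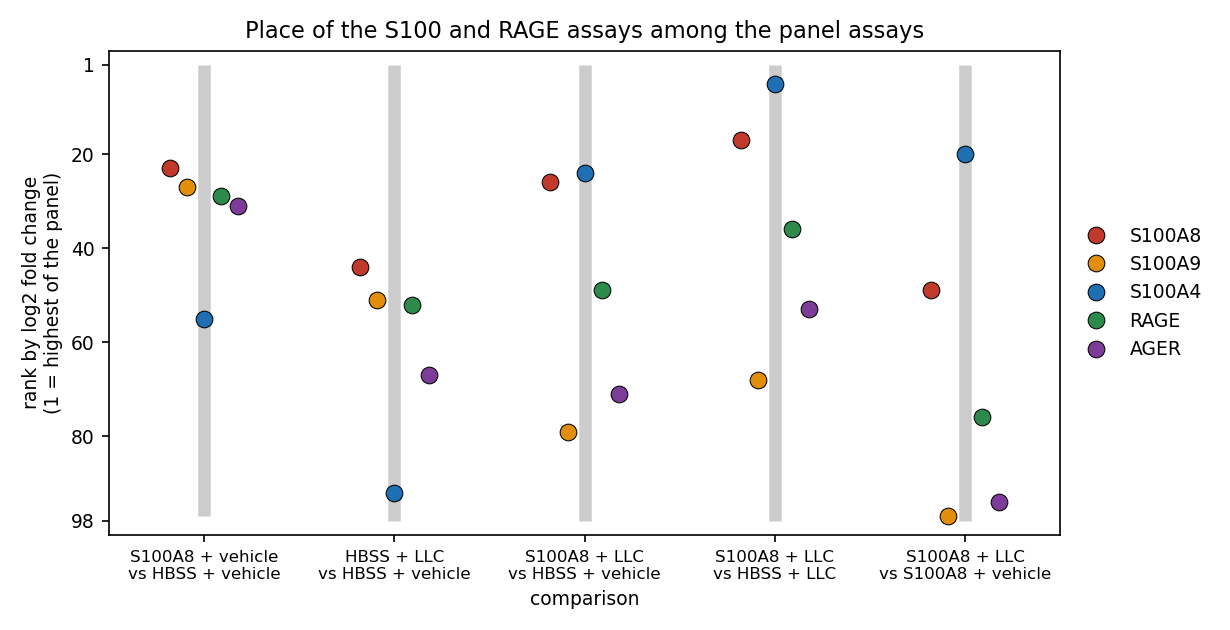
Rank of the 5 assays by log2 fold change among the panel assays with a value in each comparison (1 is the highest; grey bars span the panel, 97 assays in the first comparison and 98 in the others). Ranks do not depend on the reference; S100A4 goes from 92nd in HBSS + LLC against HBSS + vehicle to 5th in S100A8 + LLC against HBSS + LLC, and S100A9 is 97th in S100A8 + LLC against S100A8 + vehicle.

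Changes of 1 assay relative to another hold no housekeeping Ct and are the same under every reference. S100A9 was followed relative to S100A8, its protein partner and neighbouring gene. The S100A9 Ct minus the S100A8 Ct was -0.79 in the control, -0.65 with S100A8 alone, -0.26 with LLC alone and 0.95 with both. The difference was thus highest with both treatments, and its sign carries no order of the 2 transcripts, because the assays have their own primers. Relative to S100A8, S100A9 mRNA was lower than in the control by 1.10-fold with S100A8 alone, 1.44-fold with LLC alone and 3.34-fold with both. Against HBSS + LLC, S100A8 + LLC was 2.31-fold lower on this measure, and against S100A8 + vehicle it was 3.03-fold lower. How this change of the pair divides between S100A9 and S100A8 depends on the reference. Against the control, S100A9 was at -0.93 and S100A8 at 0.81 with the housekeeping mean, at -1.92 and -0.18 with no reference, and at -0.19 and 1.55 with the first housekeeping assay alone.

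S100A4 relative to S100A8 was 2.10-fold lower than in the control with S100A8 alone, 5.46-fold lower with LLC alone and 1.08-fold higher with both. S100A8 + LLC was 5.90-fold higher on this measure than HBSS + LLC. Relative to S100A9 the same contrast was 13.6-fold, and relative to RAGE and AGER it was 8.28-fold and 10.1-fold. S100A4 thus read higher with both treatments than with LLC alone against each of the other 4 assays.

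The receptor can be set beside its ligands in the same way. Relative to S100A9, AGER differed from the control by log2 -0.19 with S100A8 alone, -0.36 with LLC alone and 0.08 with both. RAGE relative to S100A9 differed by -0.16, -0.01 and 0.71, 1.64-fold higher with both. Relative to S100A8, AGER was 3.16-fold and RAGE 2.04-fold lower with both treatments than in the control.

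**Figure D4:**
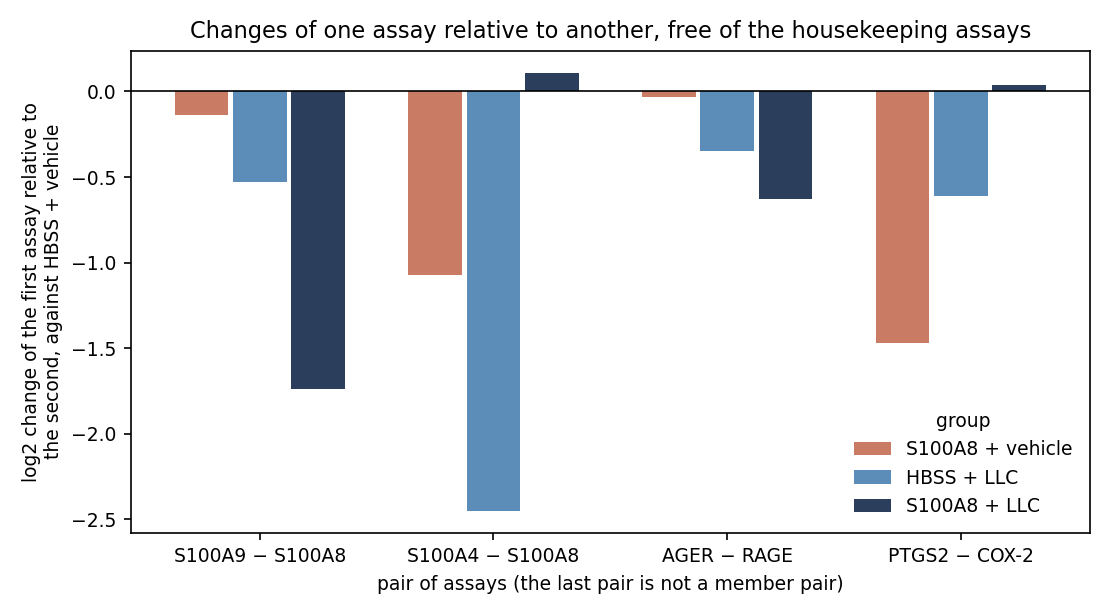
Log2 change of the first assay relative to the second, against HBSS + vehicle, for 4 pairs of assays in the other 3 groups; bars start at 0, each is 1 value, and no error can be given. S100A9 relative to S100A8 reaches -1.74 in S100A8 + LLC, S100A4 relative to S100A8 reaches -2.45 in HBSS + LLC, and AGER relative to RAGE goes no lower than -0.63.

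RAGE and AGER address how well a pair of assays of 1 gene matched. The AGER Ct minus the RAGE Ct was -0.80 in the control, -0.77 with S100A8 alone, -0.45 with LLC alone and -0.17 with both. AGER relative to RAGE was 1.02-fold, 1.27-fold and 1.55-fold lower than in the control with S100A8 alone, LLC alone and both. The SD of the Ct difference over the 4 groups was 0.297 cycles, the 150th smallest of 4753 pairs of panel assays. The other gene with a pair of assays was Ptgs2, the inducible cyclooxygenase, listed as COX-2 and as PTGS2. That pair had an SD of 0.706 cycles, the 985th smallest, with Ct differences of -6.61 in the control, -5.14 with S100A8 alone, -6.00 with LLC alone and -6.65 with both. Differences of up to 1.55-fold for Ager and 2.77-fold for Ptgs2 relative to the control thus arose between assays of the same gene. RefSeq lists 8 transcripts of Ager and 1 of Ptgs2, and which of them each primer pair reads was not tested.

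Assays of like pattern were those with the smallest SD of the Ct difference over the 4 groups, a measure that needs no reference. For S100A9 the nearest was GM-CSF, a growth factor of granulocytes and macrophages, with an SD of 0.070 cycles, the 2nd smallest of 4753 pairs. The GM-CSF Ct minus the S100A9 Ct was 4.53 in the control, 4.65 with S100A8 alone, 4.66 with LLC alone and 4.54 with both. AGER at 0.197 and MUC1, an epithelial mucin, at 0.242 followed. For AGER these were TIMP2, an inhibitor of matrix metalloproteinases, at 0.102, GM-CSF at 0.135 and the transcription factor STAT3 at 0.138. For RAGE they were the tumour suppressor p53 at 0.128, the macrophage growth factor M-CSF at 0.161 and the chemokine CCL-3 at 0.184. For S100A8 they were SAA3, an acute-phase protein, at 0.275, the haem-degrading enzyme HO-1 at 0.329 and arginase ARG2 at 0.377. S100A4 had no assay as near. Its 3 were the glutathione peroxidase GPX1 at 0.485, the granulocyte growth factor G-CSF at 0.814 and the gelatinase MMP-2 at 0.827, and its median SD to the 97 other assays was 1.60, against 0.828 to 1.05 for the other 4 members. GPX1 read 23.87 cycles in the control, 26.28 with S100A8 alone, 26.51 with LLC alone and 24.19 with both, earlier in the control and with both than in the other 2 groups, as for S100A4. With 4 groups, likeness of pattern is a description.

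Lists of related panel genes are given below by their counts past 2-fold, to be read beside the shares of all panel assays. These shares, higher and lower, were 27.8% and 17.5% in S100A8 + vehicle, 26.5% and 21.4% in HBSS + LLC and 22.4% and 18.4% in S100A8 + LLC against the control, 11.2% and 15.3% in S100A8 + LLC against HBSS + LLC, and 12.2% and 29.6% against S100A8 + vehicle. The panel medians were 0.34, -0.19, -0.22, -0.06 and -0.44 on the log2 scale in this order. A list was not tested against the panel, and the lists were chosen with earlier results of these data known. All these counts, shares and medians use the housekeeping mean, and both the lists and the panel shift with another reference.

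Transducers used by S100 receptors included STAT3 and NF-κB. STAT3 was 2.69-fold lower in S100A8 + LLC against S100A8 + vehicle, and NF-κB was at log2 -0.93. Neither was past 2-fold in the other 4 comparisons. Of 13 assays of genes that RAGE and TLR4 signalling is known to induce, 7 were more than 2-fold lower in S100A8 + LLC against S100A8 + vehicle and 1, PTGS2, higher, where 29.6% and 12.2% of panel assays were. The 7 were the cytokines TNF-α and IL-1β, the neutrophil attractants CXCL-1 and CXCL-2, the protease MMP-9, the nitric oxide synthase iNOS and SAA3. They were lower by 2.07-fold for SAA3 to 3.68-fold for CXCL-2. The median of the 13 was -1.05, below 0 under all 6 references, beside -0.44 over all 98 panel assays. In S100A8 + vehicle against HBSS + vehicle, 3 of the 13 were higher and 3 lower, where 27.8% and 17.5% of panel assays were. The higher ones were MMP-9 at 7.06-fold, SAA3 at 3.05-fold and the adhesion molecule ICAM-1 at 7538-fold, whose control Ct of 32.47 was over 30 cycles. The lower ones were PTGS2 at 3.36-fold, IL-6 at 3.07-fold and the monocyte attractant CCL-2 at 2.77-fold. In HBSS + LLC against the control 2 were higher, ICAM-1 and COX-2, and 4 lower, TNF-α, CXCL-1, CCL-2 and iNOS, where 26.5% and 21.4% of panel assays were. Of these, COX-2, TNF-α, CXCL-1 and iNOS changed direction with the reference. With both treatments against the control 2 were higher, ICAM-1 and MMP-9, and 6 lower, TNF-α, IL-1β, IL-6, CXCL-1, CXCL-2 and CCL-2, where 22.4% and 18.4% of panel assays were. Against HBSS + LLC, S100A8 + LLC had 0 higher and 3 lower, IL-1β and both Ptgs2 assays, where 11.2% and 15.3% of panel assays were.

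Growth factors and attractants of granulocytes and monocytes, the cells known to carry S100A8 and S100A9, numbered 10. Of these 6 were more than 2-fold lower and 0 higher in S100A8 + LLC against S100A8 + vehicle, where 29.6% and 12.2% of panel assays were. The median of the 10 was -1.17, beside -0.44 over the panel. GM-CSF and CXCL-2 were both 3.68-fold lower, CXCL-1 2.99-fold, CCL-3 2.45-fold, M-CSF 2.38-fold and CXCL-5 2.11-fold. In S100A8 + vehicle against the control M-CSF and G-CSF were higher and CCL-2 lower, 2 and 1 of 10, where 27.8% and 17.5% of panel assays were. Both higher values turned below 0 with no reference, at -0.23 and -0.25. In HBSS + LLC 0 were higher and 3 lower, CXCL-1, CXCL-5 and CCL-2, beside 26.5% and 21.4% of the panel, and CXCL-1 changed direction with the reference. Both treatments against the control gave 0 higher and 4 lower, these 3 and CXCL-2, beside 22.4% and 18.4%. Against HBSS + LLC 1, G-CSF, was higher and 0 lower, beside 11.2% and 15.3%. The G-CSF Ct was 31.99 with both treatments and 32.19 with LLC alone. Its log2 fold change ran from 0.20 to 2.39 over the 6 references.

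The panel had 4 assays of genes that phagocytes express. Of the 4, ARG1 was 48.5-fold and MMP-9 7.06-fold higher in S100A8 + vehicle than in HBSS + vehicle and 0 were lower, beside 27.8% and 17.5% of the panel. The ARG1 Ct in the control was 31.03, over 30 cycles. MMP-9 was 3.10-fold and iNOS 2.46-fold lower in S100A8 + LLC against S100A8 + vehicle, and 0 were higher, beside 29.6% lower and 12.2% higher. In HBSS + LLC against the control ARG1 was 31.6-fold higher and iNOS lower, beside 26.5% and 21.4%, and iNOS changed direction with the reference. With both treatments against the control ARG1, by 27.3-fold, and MMP-9 were higher and 0 lower, beside 22.4% and 18.4%. None of the 4 was past 2-fold in S100A8 + LLC against HBSS + LLC. The part of such cells in the S100A9 values was not tested.

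S100A4 is a gene of fibroblasts and migrating cells, and 8 assays of matrix proteins, proteases and their inhibitor TIMP2 were on the panel. In S100A8 + LLC against HBSS + LLC, MMP-10 was 9.45-fold and MMP-2 2.31-fold higher and 0 were lower, beside 11.2% and 15.3% of the panel. In HBSS + LLC against HBSS + vehicle MMP-10, MMP-2 and the collagen COL10A1 were 10.7-fold, 2.36-fold and 2.03-fold lower and 0 were higher, beside 21.4% lower and 26.5% higher. The directions of MMP-2 crossed 0 with the reference in both comparisons, and that of COL10A1 in the latter. In S100A8 + vehicle against the control MMP-9 was higher and 3 assays lower, COL10A1 by 4.11-fold, the collagen COL11A1 by 3.48-fold and MMP-10 by at least 6.96-fold, beside 27.8% and 17.5%. Under both treatments MMP-9 was higher and COL10A1 lower than in the control, beside 22.4% and 18.4%. With both treatments, relative to S100A8 alone, COL11A1 was 2.41-fold and MMP-10 at least 6.15-fold higher, and MMP-9 and TIMP2 were 3.10-fold and 2.91-fold lower, beside 12.2% and 29.6%. The bounds of MMP-10 arise because S100A8 + vehicle was at 38 cycles, and its Ct was 33.76 or more in every group. COL11A1 also read late, at 36.37 cycles in S100A8 + vehicle and 33.13 or more in every group.

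Beside RAGE as an alveolar gene, 5 epithelial and alveolar assays were measured. CDH1, the epithelial cadherin, was higher than in the control by 32.7-fold with S100A8 alone, 16.8-fold with LLC alone and 12.3-fold with both. KRT5, a basal keratin, was lower than in the control by 8.57-fold, 8.63-fold and 4.66-fold in this order, past 2-fold under all 6 references. KRT14, the partner keratin, was 3.20-fold lower with LLC alone and 6.11-fold higher with both than in the control, and 19.6-fold higher with both than with LLC alone. In S100A8 + LLC against S100A8 + vehicle, where RAGE and AGER were lower, CDH1 was 2.66-fold and the mucin MUC1 2.73-fold lower, KRT14 was 6.06-fold higher and KRT5 was at log2 0.88. CAV1, the caveolin of alveolar type I and endothelial cells, was at log2 0.95, on the other side of 0 from both RAGE assays. In HBSS + LLC against HBSS + vehicle it was 2.77-fold higher, again opposite to RAGE and AGER, although its direction turned with the reference. The counts of these 5 higher and lower were 1 and 1 in S100A8 + vehicle (panel 27.8% and 17.5%), 2 and 2 in HBSS + LLC (26.5% and 21.4%) and 2 and 1 in S100A8 + LLC (22.4% and 18.4%) against the control. They were 1 and 0 in S100A8 + LLC against HBSS + LLC (11.2% and 15.3%) and 1 and 2 against S100A8 + vehicle (12.2% and 29.6%).

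Of 3 T cell and dividing-cell assays, the T cell kinase LCK was lower than in the control by 3.10-fold with S100A8 alone, 5.17-fold with LLC alone and 3.63-fold with both. With both treatments IL-2 was 3.76-fold of the control, 2.06-fold of LLC alone and at least 2.99-fold of S100A8 alone, with a Ct of 35.68 or more in every group. The value against LLC alone changed direction with the reference, to log2 -0.29 with no reference. MKI67, the marker of dividing cells, was past 2-fold in none of the 5 comparisons. What part these cells had in the RAGE and S100 values was not tested.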

How the data were processed

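Lung RNA (1.5 µg) was reverse-transcribed and measured by SYBR Green RT-qPCR; the labels name a LightCycler and the paper a QuantStudio machine. The authors averaged Ct values over 4 to 5 mice per group and deposited the resulting group means, 1 for each assay, not normalized, as well as fold changes (a ratio to HBSS + vehicle), which were used only to identify assays and columns. All 98 panel names matched exactly 1 numbered assay at 3 fold changes, with a largest difference of 0.000269%. The remaining 2 were treated as the housekeeping genes of the paper, β-actin and β2M, without telling them apart. Of per-sample columns, 0 were left out.

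Log2 fold changes were computed from Ct after subtracting the average of both housekeeping assays in the same group, with doubling per cycle. IL-2, MMP-10 and other assays at 38 cycles in 1 group were counted at their bound, and 1 assay at 38 cycles in both groups had no value in S100A8 + vehicle against HBSS + vehicle. Alternatives were the other references, thresholds of 1.5-fold and 3-fold, and an amplification of 1.9 per cycle. The assays named are the 5 members, the 3 assays of most like pattern of each, COX-2 and PTGS2, and listed genes past 2-fold or needed to describe a list. One listed gene is not reported here. Members and lists were chosen with earlier results of these data known. Depth and precision cannot be given, because 1 averaged value per group holds no spread. Promoter sequences were matched by symbol for all 4 genes. Calculations were tested on simulated Ct values. Python 3.11.15, numpy 2.4.6 and matplotlib 3.10.9 were used.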

Additional observations from a re-analysis of the deposited data

Results flagged for a closer look

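S100A4 mRNA moved in opposite directions with LLC in the presence and absence of inhaled S100A8. The log2 effect of LLC was -2.30 with HBSS, between -3.90 and -0.70 over the 6 references. With S100A8 it was 0.79, between 0.62 and 1.28, and not past 2-fold with the housekeeping mean. The difference was 3.09, between 1.59 and 4.59, and the directions were opposite under all 6 references. With 1 averaged value per group the difference was not tested.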

How the results depend on the processing

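Of 125 member values recomputed under 5 other references, 99 kept their direction. Of the 25 member comparisons, 7 were past 2-fold, 5 of these kept their direction under all 6 references and 3 stayed past 2-fold. In S100A8 + vehicle against HBSS + vehicle, S100A8 and S100A9 reversed to -0.24 and -0.38 with no reference. The number of the 5 assays past 2-fold there was 2, and became 4 with only the first housekeeping assay (RAGE and AGER added), 0 with only the second, 0 with either panel median, 1 with no reference (S100A4, lower), 4 at 1.5-fold, 0 at 3-fold and 1 at an amplification of 1.9 per cycle. In HBSS + LLC against HBSS + vehicle it was 1, S100A4, and became 3 with only the first housekeeping assay, which are S100A8, S100A9 and RAGE, all higher, while S100A4 at -0.70 was not past 2-fold. It became 5 with only the second, all lower, 2 with the median of assays at or under 30 cycles (AGER added) and 2 at 1.5-fold. In S100A8 + LLC against HBSS + vehicle it was 0, and became 2 with only the first housekeeping assay (S100A8 and S100A4, higher), 2 with only the second and 2 with the panel median (S100A9 and AGER, lower), 1 with the median of assays at or under 30 cycles (S100A9), 3 with no reference (S100A9, RAGE and AGER, lower) and 4 at 1.5-fold. In S100A8 + LLC against HBSS + LLC it was 1, S100A4, to which the 5 references and 1.5-fold in the same order added S100A9 lower (2), S100A8 and RAGE higher (3), S100A9 lower (2), S100A8 higher (2), S100A9, RAGE and AGER lower (4) and S100A8 higher (2). In S100A8 + LLC against S100A8 + vehicle it was 3 under each reference, 4 at 1.5-fold and 2 at 3-fold, but not the same assays. With the median of assays at or under 30 cycles and with no reference, S100A4, higher at 1.28 and 1.24, was past 2-fold in place of RAGE, at -0.64 and -0.67. Over the 6 references, panel assays past 2-fold either way made up 45.4% to 67.0%, 48.0% to 77.6%, 40.8% to 70.4%, 26.5% to 75.5% and 34.7% to 45.9% in these 5 comparisons.

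A change of reference shifts all assays of a comparison alike. No paired analysis was possible because each group has 1 averaged value and the groups share 1 replicate number. For the same reason no replicate was left out. All 5 assays lay well under the cut off of 38 cycles.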
